A study of Rattus norvegicus with 22 samples.

Results

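The difference between the responses to castration and to ovariectomy was measured in the ventral part of the cervical spinal cord (segments C3-C6) of all 22 of the 22 rats of the series, assigned to 4 groups by the prefix of their column in the table of read counts. For each gene it is the log2 change from intact to castrated males minus the log2 change from intact to ovariectomized females. The groups were 5 intact males, 5 castrated males (gonadectomized, GDX), 6 intact females and 6 ovariectomized females (OVX), young adult Sprague-Dawley rats aged 3-4 months, with 1 library per rat and the females virgin. In the GDX and OVX groups the testes or ovaries had been removed from both sides under isoflurane and buprenorphine, and tissue was taken 2 weeks later after perfusion with cold saline. Controls were matched for age and had intact gonads. The stage of the estrous cycle of the intact females was not used here, and its part in their values was not tested. The paper names no sham surgery for them, so the loss of the gonads and the surgery with its drugs cannot be told apart.

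The gonads are the main source of circulating sex steroids. The testis secretes testosterone, which neural tissue can convert to estradiol or to dihydrotestosterone, and the ovary secretes estradiol and progesterone in a cycle. These steroids act mainly through nuclear receptors that regulate transcription. The ventral horn of the cervical cord holds motor neurons of the forelimb and of the diaphragm, together with interneurons, glia and vessels, and the cord is wrapped in meninges built by fibroblasts and crossed by the nerve roots with their Schwann cells.

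Between 12371756 and 17571887 reads were counted per library. Gene levels are given in CPM (read counts scaled to the size of each library by the trimmed mean of M-values, TMM), which compare a gene between rats but not genes with each other. The libraries differ in the class of their average input fragment, shorter or longer. All GDX and OVX libraries are of the shorter class, as are intact males 2 and 5 and intact females 1 and 4, while 3 intact males and 4 intact females are of the longer class. Males and females matched their labels: the Y-linked genes Kdm5d and Eif2s3y lay at or above 30.7 and 36.1 CPM in every male and had a count of 0 in all 12 females. Markers of motor neurons were present in every rat, with group medians between 34.5 and 46.4 CPM for Chat, which makes acetylcholine, and between 43.4 and 63.1 CPM for Slc18a3, which loads it into vesicles. Mrgprd, a marker of sensory neurons of the dorsal root ganglion, had no count in any rat, and Scn10a, the sodium channel of the same ganglion, did not pass 0.558 CPM, but the capsaicin receptor Trpv1 of these neurons was counted in every rat (group medians of 1.72 to 2.41 CPM). Markers of neighbouring tissues were present, among them the meningeal transporter Slc6a13 (group medians of 4.54 to 14.97 CPM) and the fibroblast proteoglycan Dcn (9.15 to 23.7 CPM). In bulk tissue, fewer cells of a type and less RNA per cell cannot be told apart, and p-values measure the spread between rats.

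In the genes called for the difference, most of the response lay in males. Of 15562 genes tested, 18 (0.116%) passed the adjusted level of 0.1 for the difference (quasi-likelihood test of edgeR, adjusted by Benjamini-Hochberg) and are named called genes here, 14 with a higher response in males and 4 with a lower one. All 14 had their lowest group mean in intact males, and 3 of the 4 had their highest mean there. The contrast is built from these means, and genes chosen by it tend to have an extreme mean in intact males or in OVX females, so this describes the called genes and tests nothing further. Of the 18 genes, 16 had the larger response in males, 15 had responses of opposite sign in the 2 sexes, and for 15 the sex difference was larger between intact rats than between gonadectomized ones. Across all genes, 613 differed between intact males and intact females at an adjusted p under 0.1 and 61 between GDX males and OVX females. The number called in the difference depended on single rats, from 1 without GDX male 5 to 275 without GDX male 1, while all 18 genes kept their direction and an unadjusted p under 0.05 in each of the 22 fits that left out a rat. None of the 18 was called with the shorter class alone, with rat number as a replicate block or with the level of meninges genes held constant, where all kept their direction.

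Below the adjusted level the difference was spread over many genes. There were 922 genes with a higher response in males (5.92%) and 888 with a lower one (5.71%) at an unadjusted p under 0.05. In males, 1177 genes rose after GDX (7.56%) and 1218 fell (7.83%) at an adjusted p under 0.1, while 9 genes were called after OVX (0.0578%). At an unadjusted p under 0.05, 759 genes were higher after OVX (4.88%) and 844 lower (5.42%). Counts of list members given below are to be read beside these shares of all genes. The SD of the log2 response over all genes was 0.33 in males and 0.24 in females. The responses, which share no rats, had the same sign in 61.8% of genes, with Pearson's r 0.18 and Spearman's rho 0.29 across genes, which are not independent of each other. Of 659 genes with an unadjusted p under 0.05 in both sexes, 621 moved the same way, 276 upward and 345 downward, and 38 moved in opposite directions. Among these 659 genes most responses were shared in direction, and the functions described next include shared and unshared ones. Both responses compare rats of the shorter fragment class with intact groups mostly of the longer class. The fit had no term for this class, and its part in the shared direction was not tested.

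**Figure D1:**
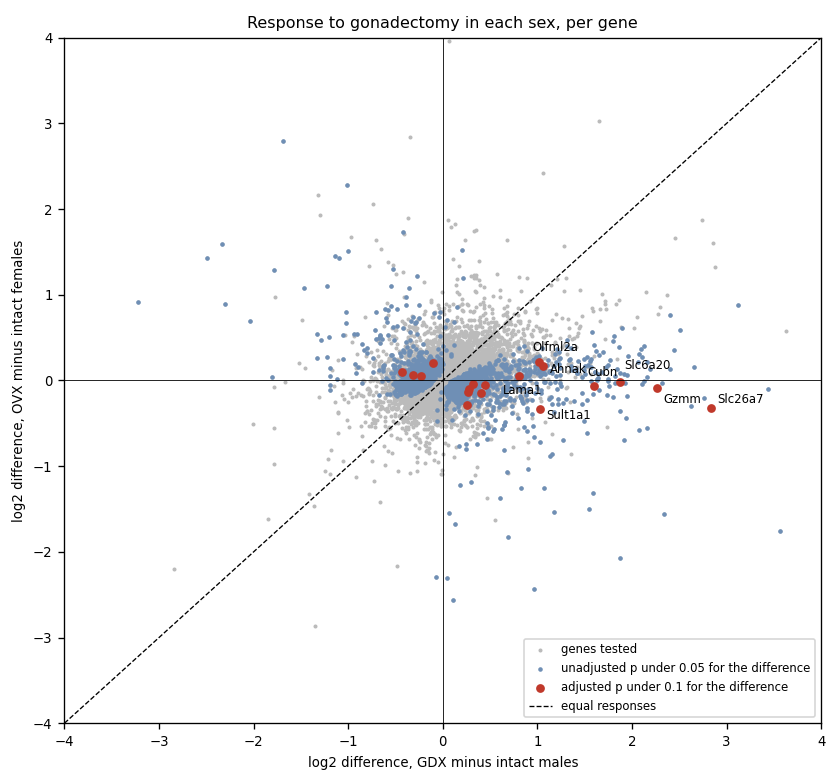
Each point is 1 of 15562 genes, with its log2 difference of GDX minus intact males on the horizontal axis and of OVX minus intact females on the vertical axis; blue marks an unadjusted p under 0.05 and red an adjusted p under 0.1 for the difference. The 14 called genes with a higher response in males lie to the right of the dashed line of equal responses, and 3 genes lie beyond the axes.

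Several of the largest called differences were in membrane carriers and an endocytic receptor. Slc26a7 exchanges chloride with other anions across membranes. It lay at 0.355, 0.296, 0.151, 0.371 and 0.263 CPM in the 5 intact males and at 0.797, 1.79, 2.09, 3.83 and 2.09 CPM in the GDX males, from 0.484 to 3.26 with a median of 1.50 CPM in intact females and from 0.962 to 1.72 with a median of 1.24 CPM after OVX. Every GDX male was above every intact male, every intact female was above them too, and intact and OVX females overlapped, for a difference of 3.15 ± 0.58 (SE; adjusted p = 0.0630). Slc6a20, which carries proline and related imino acids, was measured at 8.44, 10.8, 6.42, 9.47 and 5.38 CPM in intact males and 18.1, 18.1, 25.1, 56.1 and 32.2 CPM in GDX males, and females lay from 12.6 to 34.8 with a median of 24.3 CPM when intact and from 14.6 to 32.6 with a median of 22.9 CPM after OVX. GDX male 5 was the highest of all rats, the intact males were again below all others, and the difference was 1.90 ± 0.40 (adjusted p = 0.0973). Cubn, the endocytic receptor cubilin, had means of 1.54, 4.68, 4.49 and 4.28 CPM, in the order of intact and GDX males and then intact and OVX females, and a difference of 1.66 (adjusted p = 0.0973). Slco3a1, a carrier of organic anions and prostaglandins, went the other way and was the only called gene that also rose after OVX. It lay from 37.4 to 41.7 with a median of 39.2 CPM in intact females and from 41.7 to 46.2 with a median of 45.8 CPM in OVX females, with 44.5, 41.5, 44.9, 45.9 and 43.1 CPM in intact males and 42.5, 43.3, 39.1, 40.5 and 38.6 CPM in GDX males. The response was 0.20 in females (adjusted p = 0.0742) and -0.11 in males (adjusted p = 0.125), a difference of -0.31 ± 0.060 (adjusted p = 0.0735).

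Another 5 of the called genes act in the matrix, at the cell surface or at cell junctions. Ahnak, a very large scaffold protein beneath the cell membrane, lay at 178, 206, 201, 180.2 and 143 CPM in intact males and 277, 355, 373, 508 and 385 CPM in GDX males, from 256 to 388 with a median of 375 CPM in intact females and from 288 to 449 with a median of 377 CPM in OVX females. No intact male reached the lowest rat of any other group, and the difference was 0.90 ± 0.19 (adjusted p = 0.0973). Olfml2a, a secreted olfactomedin protein of the matrix, was at 9.997, 9.26, 8.77, 8.54 and 8.21 CPM in intact and 17.7, 16.3, 16.9, 20.8 and 19.0 CPM in GDX males, against ranges of 12.2 to 21.0 CPM in intact and 14.8 to 20.5 CPM in OVX females (difference 0.81 ± 0.16, adjusted p = 0.0864). The intact males stood apart and the 3 other groups overlapped. Lama1, a laminin chain of basement membranes, had group means of 6.08, 10.6, 9.71 and 10.03 CPM in the same order, and Cd44, the receptor for hyaluronan, means of 28.6, 39.1, 40.4 and 38.8 CPM. Their differences were 0.76 and 0.51 (adjusted p = 0.0973 for both), and with the shorter class alone that of Cd44 was 0.30. Pkp4, an armadillo protein of adherens junctions and desmosomes, had the smallest adjusted p (0.0179) at a difference of 0.36, and its GDX males were all above its intact males.

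A further group has roles in neurons, glia and transcription. Scrt1, a repressor made in newly formed and mature neurons, lay at 49.4, 46.5, 43.9, 45.7 and 47.9 CPM in intact males and 39.6, 35.5, 27.9, 35.2 and 35.2 CPM in GDX males, from 39.5 to 45.1 with a median of 44.3 CPM in intact females and from 38.1 to 55.8 with a median of 46.2 CPM in OVX females. Every GDX male was below every intact male, the females overlapped, and the difference was -0.53 ± 0.11 (adjusted p = 0.0973). Lamp5, a lysosome-associated membrane protein of neurons, also fell after GDX, with group means of 106, 85.2, 91.1 and 95.3 CPM and a difference of -0.38. Adar, the enzyme that edits adenosine to inosine in double-stranded RNA, lay at 116, 126, 122, 127 and 115 CPM in intact males and 115, 103, 99.4, 100.4 and 101 CPM in GDX males, without overlap, and its response differed from that in females by -0.28. Rgma, a repulsive guidance molecule that acts on growing axons, rose by 0.40 after GDX (adjusted p = 0.00185) and had a response of -0.15 after OVX, where its adjusted p was 0.463. With the shorter class alone the difference of Rgma was 0.32 in place of 0.55. Its levels were 31.8, 43.6, 36.8, 41.0 and 36.4 CPM in intact males and 48.5, 51.1, 45.4, 55.2 and 50.5 CPM in GDX males, without overlap. Hopx, a small homeodomain protein found in astrocytes, and Plekhb1, a membrane protein with a pleckstrin homology domain, had differences of 0.39 and 0.37 with group means of 50.7, 60.9, 61.7 and 56.3 CPM and of 675, 814, 728 and 679 CPM. Gzmm, a granzyme of cytotoxic lymphocytes, had the lowest levels of the called genes, between 0.0657 and 1.57 CPM in males (difference 2.35 ± 0.49, adjusted p = 0.0973), and Sult1a1, which adds sulfate to phenols and estrogens, differed by 1.36 ± 0.30 (adjusted p = 0.0973). Sult1a1 had overlapping males. Dbp, the last of the 18, is described with the clock genes. In the 22 fits that each left out a rat, Pkp4 was called in 22, Plekhb1 in 21, Slc26a7 in 16 and Rgma in 15, and each of the other 14 in between 5 (Sult1a1) and 11 (Slco3a1).

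**Figure D2:**
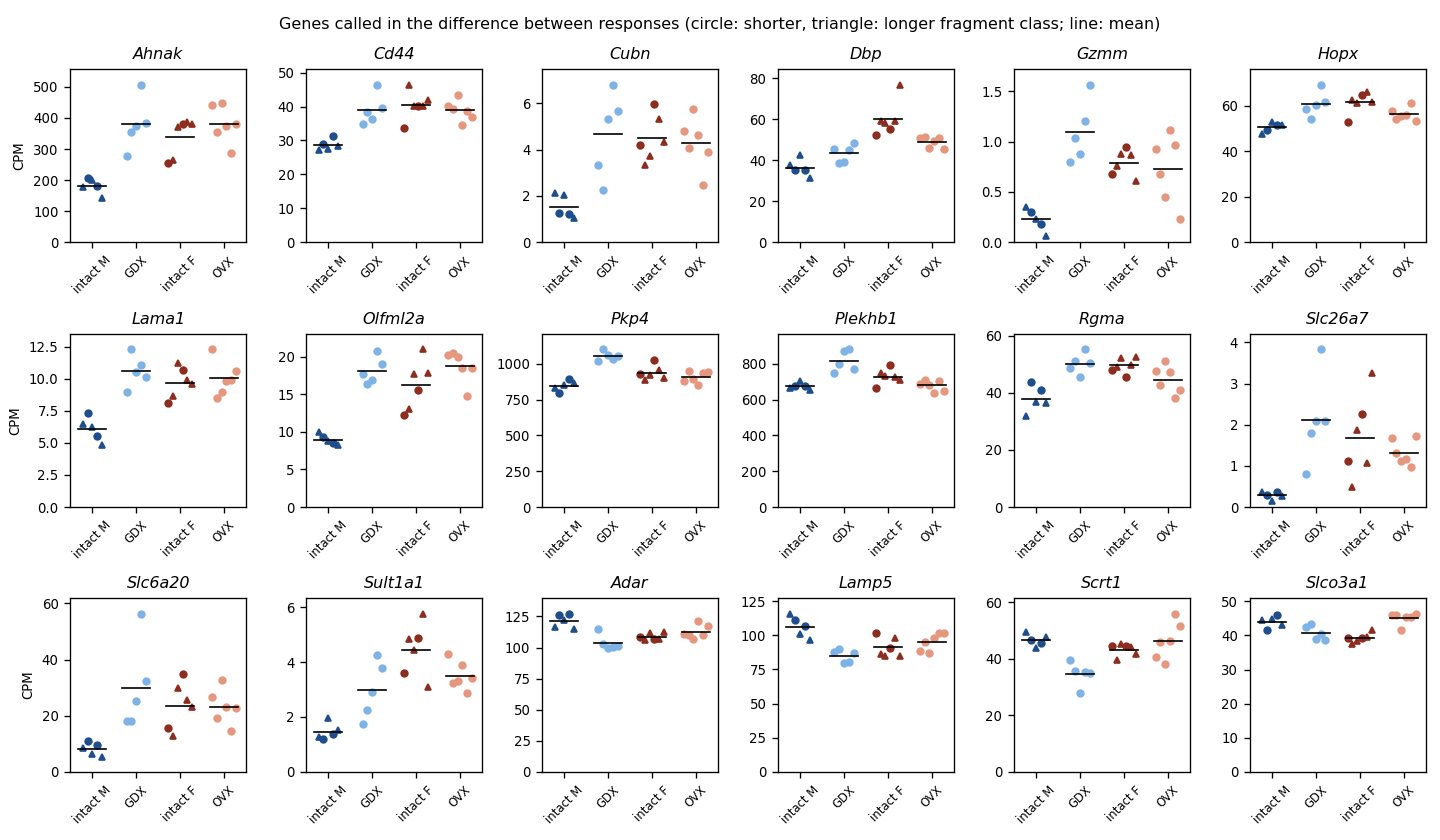
CPM of the 18 called genes in each rat, by group, with circles for the shorter and triangles for the longer fragment class and a line at the group mean. In the 14 genes with the higher response in males the intact males have the lowest mean.

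The next genes by p with a lower response in males did not reach the adjusted level. Slc6a5, the glycine transporter that fills inhibitory terminals, had group means of 317, 245, 268 and 264 CPM (difference -0.35, adjusted p = 0.123). Kif21b, a kinesin motor of dendrites, Got1, which interconverts aspartate and glutamate, and Steap2, a metalloreductase, had differences of -0.40, -0.28 and -0.33. Thtpa, a thiamine triphosphatase, and the ubiquitin ligase Pja1 had differences of -0.24 and -0.22. For Det1, a subunit of a ubiquitin ligase, and Zmynd10, which takes part in the assembly of ciliary dynein, the female side was also large, with responses of 0.73 and 0.34 after OVX against -0.25 and -0.41 after GDX.

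Genes of the meninges and fibroblasts had the largest difference of the 57 function lists. All 21 of the 21 tested members (of 22 in the table) of the meninges and fibroblast list had a higher response in males, and 18 of them (85.7%) had an unadjusted p under 0.05, against 5.92% of all genes; none reached an adjusted p under 0.1. The median difference was 1.27, where that of all genes was 0.0017. After GDX 20 of the 21 rose, with a median log2 response of 1.57, and after OVX none had an unadjusted p under 0.05, with a median of 0.22. Summed over the list, the level was 848, 607, 643, 537 and 475 CPM in intact males and 823, 929, 1356, 2263 and 1589 CPM in GDX males. In intact females it lay from 744 to 1659 with a median of 1336 CPM and in OVX females from 996 to 1798 with a median of 1278 CPM. Intact males 2, 3, 5 and 6 were below every rat of the other groups, and intact male 1 lay above GDX male 1 and intact females 1 and 2. The median of intact males minus intact females was -1.23, and that of GDX minus OVX rats 0.017.

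The most abundant member was Ptgds, which makes prostaglandin D2 in the leptomeninges, with a mean of 637 CPM over all rats. It lay at 476, 322, 343, 312 and 274 CPM in intact males, 461, 421, 693, 1335 and 879 CPM in GDX males, from 435 to 949.6 with a median of 721 CPM in intact females and from 529 to 1027 with a median of 687 CPM in OVX females, a difference of 1.02 (adjusted p = 0.223). GDX male 5 was the highest, and the groups overlapped. Foxc2 and Foxc1, transcription factors of meningeal development, had differences of 2.22 and 0.88. The transporters of the meninges Slc6a13 (GABA and betaine) and Slc22a6 (organic anions) had differences of 1.31 and 1.73, and the fibrillar collagens Col1a1 and Col3a1 of 1.30 and 1.57. Slc6a13 had no overlap between intact and GDX males or between intact males and intact females. In any single rat at most 1 member had no count.

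The difference of mean log2 CPM over the meninges and fibroblast list was 1.08 with all rats and 1.09 with the shorter class alone. The median difference was 1.27 with all rats and 1.46 with the shorter class alone. That class holds 2 intact males and 2 intact females, and the part of fragment class was not tested. The list level moved with the rest of the ranking. In a fit that held the mean log2 level of the list constant, 1 gene was called in the difference and 1 after GDX, in place of 18 and 2395. In that fit none of the 18 genes had an adjusted p under 0.1, while all 18 kept their direction and an unadjusted p under 0.05. The difference was 0.60 for Slc6a20 and 0.29 for Ahnak, but was 0.36 for Pkp4 and -0.43 for Scrt1. Whether the amount of meninges left on the tissue had a part in the other results was not tested.

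**Figure D3:**
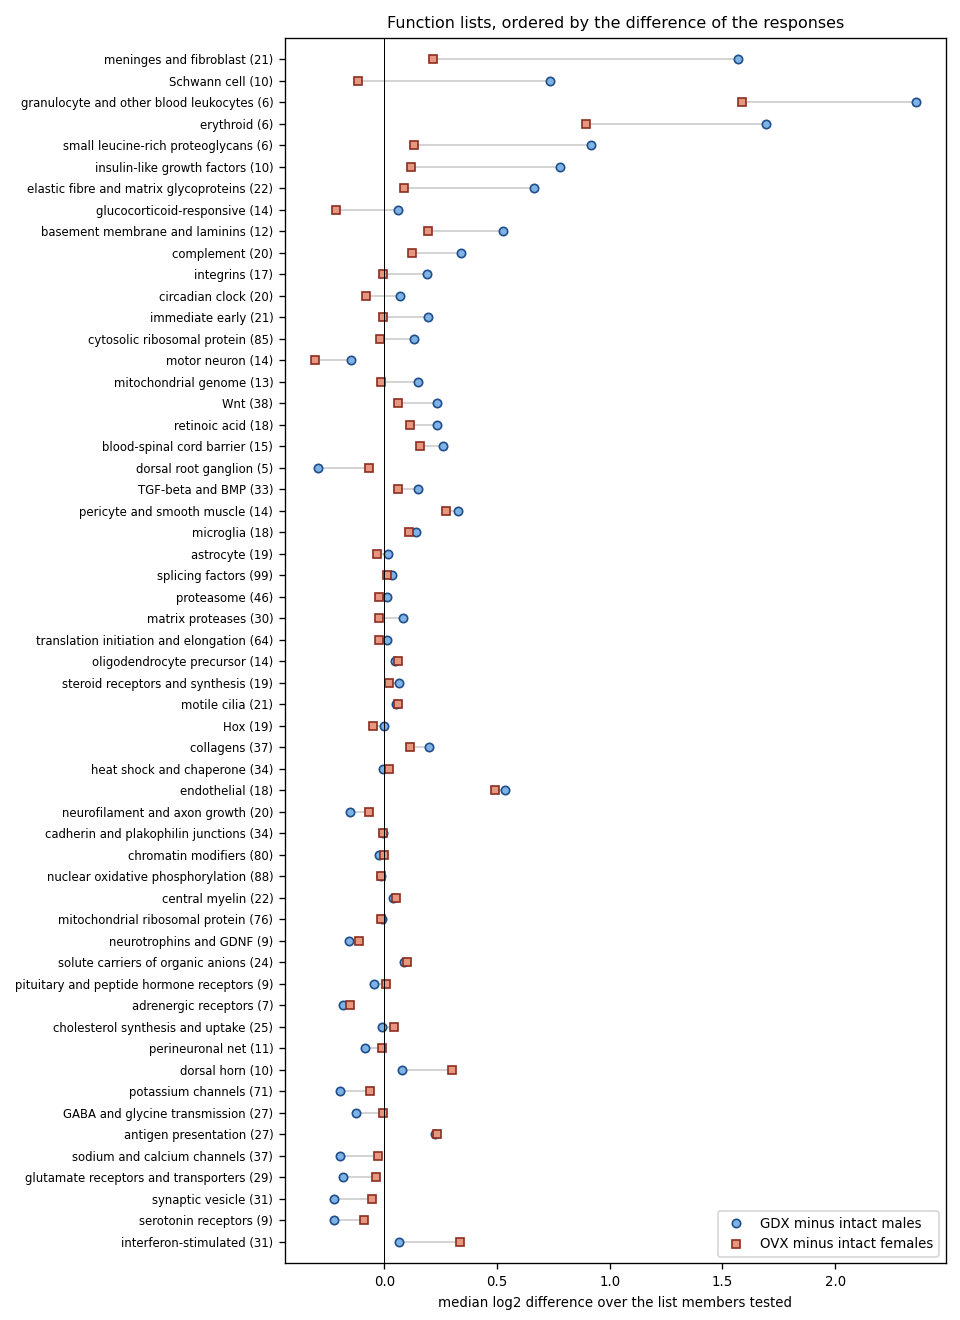
Median log2 response over the tested members of each function list (number tested in parentheses), with circles for GDX minus intact males and squares for OVX minus intact females, ordered by the median difference. Circles lie far to the right of squares for the meninges and fibroblast list at the top, and to the left for the interferon-stimulated list at the bottom.

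Lists of the extracellular matrix moved in the same direction, in part through shared genes, since Dcn, Fmod, Lum, Col1a1 and Col3a1 also belong to the meninges and fibroblast list. Of the elastic fibre and matrix glycoproteins 20 of 22 had a higher response in males, 13 of them with an unadjusted p under 0.05 (59.1%), with a median difference of 0.50, and 15 rose after GDX. With the shorter class alone 4 were higher and 1 lower at that level, with a median of 0.56. Ltbp2, which binds fibrillin, and Fbln1, a fibulin, had differences of 1.43 and 0.84, and Tnc, the adhesion-modulating tenascin C, of 0.39. Sparc, the most abundant member, differed by 0.062. All 6 tested small leucine-rich proteoglycans had a higher response in males (3 with an unadjusted p under 0.05; median 0.71), among them Fmod, Dcn, Prelp and Lum, which space collagen fibrils. In the basement membrane and laminins list it was 10 of 12 (4 with an unadjusted p under 0.05, median 0.27), with Lamb2 and Lamc3 at 0.51 and 0.55, but the most abundant member, Agrn, which clusters acetylcholine receptors at the neuromuscular junction, at -0.20. With the shorter class alone 2 proteoglycans and 2 members of the basement membrane list were higher at that level and none lower. The medians were then 0.68 and 0.27.

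The collagens were divided. Of 37 tested, 19 had a higher and 18 a lower response in males. The median was 0.018, from 0.0029 to 0.11 when a rat was left out and -0.0099 without a filter on low counts. Yet 14 had an unadjusted p under 0.05 in the upward direction (37.8%) and 2 in the other. With the shorter class alone these counts were 4 and 4, so the excess was not kept. The upward ones included Col5a1, Col6a1 and Col6a2, chains of fibril-forming and beaded-filament collagens, at 0.68, 0.98 and 0.75. In all 3 the intact males lay below every GDX male and every intact female. Col11a2, the most abundant collagen of the table, differed by -0.28 (adjusted p = 0.397). Integrins, the receptors that hold cells to the matrix, had a median of 0.18 (0.037 with the meninges level held constant and as low as 0.086 when a rat was left out) with 12 of 17 higher, Itgb4 of hemidesmosomes at 1.33 and Itgb1 at 0.23. The matrix proteases and their inhibitors had a median of 0.035 (17 of 30 higher; from -0.054 to 0.070 over 33 settings), with the inhibitor Timp3 at 0.50. In the cadherin and plakophilin junctions list, which includes Pkp4, 17 were higher and 17 lower. At an unadjusted p under 0.05 5 were higher (14.7%, against 5.92% of all genes) and 2 lower (5.88%, against 5.71%). Cdh5 of endothelial junctions and Cdh11 of mesenchymal ones had differences of 0.90 and 0.26.

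Secreted signals that act on and arise from connective tissue followed the matrix. Of the insulin-like growth factors and their binding proteins 8 of 10 had a higher response in males, 5 with an unadjusted p under 0.05 (median 0.68). With the shorter class alone 2 were higher at that level and none lower (median 0.54). Igf2 itself had a difference of 1.18, and the binding proteins Igfbp2 and Igfbp7 of 0.82 and 0.34. The retinoic acid list had a median of 0.12 (14 of 18 higher, 4 with an unadjusted p under 0.05, 1 in the other direction). That median was up to 0.20 when a rat was left out and 0.21 with rat number as a replicate block. The extremes of the list were Crabp2 and Cyp26b1, which carry and degrade retinoic acid, at 1.76 and 1.74, and Aldh1a2, which makes it, at 1.37, while the most abundant member, Aldh1a1, was at 0.044. Among Wnt genes 7 of 38 had an unadjusted p under 0.05, all with the higher response in males. With the shorter class alone 5 were higher and 3 lower at that level. The Wnt median was 0.12 (from 0.075 to 0.20 when a rat was left out), with the ligands Wnt6 and Wnt4 at 2.35 and 1.59 and the receptor Fzd4 at 0.50. In the TGF-beta and BMP list 6 of 33 had the higher response at an unadjusted p under 0.05 (median 0.084), among them the ligand Bmp6 at 0.87 and the co-receptor Tgfbr3 at 0.41. When the fit held the meninges level constant, the median of small leucine-rich proteoglycans was -0.088, that of the basement membrane and laminins 0.064 and that of the elastic fibre and matrix glycoproteins 0.017. Igf2, Igfbp2 and Aldh1a2 also belong to the meninges list. In that fit the medians of all 4 lists of signals changed sign, to -0.16 for insulin-like growth factors, -0.030 for retinoic acid, -0.056 for Wnt and -0.038 for TGF-beta and BMP.

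Most genes of Schwann cells, which make the myelin of nerve roots, had a higher response in males. Of 10 tested members of the Schwann cell list (12 in the table) 8 did, 7 of them with an unadjusted p under 0.05, and the median difference was 0.95, which was 0.11 in the fit that held the meninges level constant. After GDX 4 rose (median 0.74) and after OVX 2 had an unadjusted p under 0.05, both lower (median -0.12). Pmp22, a membrane protein of compact myelin, and Drp2, which links Schwann cells to their basement membrane, had group means of 67.9, 75.6, 88.2 and 77.6 CPM and of 45.8, 50.9, 54.1 and 50.6 CPM, overlapping between all groups, with differences of 0.34 and 0.25. Summed over the list the level was 271, 247, 306, 254 and 286 CPM in intact and 262, 276, 325, 305 and 332 CPM in GDX males, with overlap, and it lay from 302 to 399.8 with a median of 360.1 CPM in intact females and from 302 to 351 with a median of 331 CPM in OVX females. The most abundant member, Fbxo2, a ubiquitin ligase subunit that neurons also express, had a difference of -0.0042, and at most 1 member had no count in any single rat. Myelin of the central nervous system did not follow. In the central myelin list 8 of 22 had a higher response in males with a median of -0.026, 1 with an unadjusted p under 0.05 in each direction (Ermn at 0.19, Plekhh1 at -0.19), and Mbp differed by 0.14. Whether the length of nerve root on the tissue differed between groups was not tested.

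Vascular genes were higher after gonadectomy in both sexes, with differences that were small and turned with the settings. All 18 tested endothelial genes were higher after GDX, 13 of them called, where 7.56% of all genes rose. After OVX all 18 were higher, 16 with an unadjusted p under 0.05 (4.88% of all genes) and 2 called (0.0578% of all genes). The medians were 0.53 and 0.49, and the median difference was 0.0012. Summed over the endothelial list the level was 177, 258, 207, 244 and 215 CPM in intact males and 354, 380.0, 311, 317 and 280.2 CPM in GDX males, without overlap, and from 178 to 340.3 with a median of 248 CPM in intact females and from 281 to 429.9 with a median of 375 CPM in OVX females, with overlap. Flt1, a receptor of vascular endothelial growth factor and the most abundant member, had responses of 0.54 and 0.53. Within the list Cdh5, the cadherin of endothelial junctions, had the higher response in males (1.23 against 0.33) and Cd93, a surface receptor of endothelial cells, the lower (0.53 against 0.99), neither called in the difference. The pericyte and smooth muscle list had medians of 0.33 after GDX and 0.28 after OVX, with Mylk, the myosin light chain kinase, at 0.27 and 0.20, and the blood-spinal cord barrier list 0.26 and 0.16, with 9 of 15 called after GDX and 8 with an unadjusted p under 0.05 after OVX. In the barrier list 12 of 15 had a higher response in males, 3 with an unadjusted p under 0.05 (median 0.10, from -0.035 to 0.17 over 33 settings). Tpm2, a tropomyosin of contractile cells, had responses of -0.036 after GDX and 0.74 after OVX, and Tagln, a marker of smooth muscle, of 0.58 and 0.24. With the shorter class alone, the difference of mean log2 CPM of the endothelial list was -0.28, in place of -0.0089 with all rats, and for the pericyte and smooth muscle list it was -0.26 in place of 0.037. The median difference of the endothelial list ran from -0.33 with the shorter class alone to 0.20 with the meninges level held constant. With fragment class as a term the median differences were -0.0064 for the endothelial, 0.064 for the pericyte and smooth muscle and 0.093 for the barrier list. That term is shared by both sexes, whose intact groups held similar shares of the longer class, so it could change these differences little. Why the shorter class alone gave other values was not tested.

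Interferon-stimulated genes, which cells induce through STAT and IRF factors in the defence against viruses, had the lowest median difference of the 57 lists. Of 31 tested, 28 had a lower response in males, 7 with an unadjusted p under 0.05 (22.6%, against 5.71% of all genes), and the median difference was -0.26. With all rats the difference lay mainly in the response of females. All 31 were higher after OVX, 18 of them with an unadjusted p under 0.05 (4.88% of all genes), with a median of 0.34, while after GDX 22 were higher and 9 lower with a median of 0.064. Bst2, which tethers budding virus to the cell membrane, was measured from 2.98 to 4.98 with a median of 3.81 CPM in intact females and from 5.77 to 7.33 with a median of 6.72 CPM in OVX females, without overlap, and at 3.55, 4.96, 6.20, 5.94 and 4.00 CPM in intact and 4.12, 5.60, 5.81, 4.90 and 3.72 CPM in GDX males, with overlap. It rose after OVX by 0.80 (adjusted p = 0.0495), had a response of -0.029 after GDX, and its difference of -0.83 ± 0.22 was not called (adjusted p = 0.153). Ifi27, an interferon-induced protein of mitochondria, had a difference of -0.51. Adar was the only member called, and the only member called after GDX, where it fell (-0.23, adjusted p = 0.00198). Summed over the interferon-stimulated list the level was 441, 543, 502, 606 and 473 CPM in intact males and 509, 448, 509, 555 and 468 CPM in GDX males, and it lay from 409 to 499.96 with a median of 452 CPM in intact females and from 495 to 589.6 with a median of 527 CPM in OVX females. The difference of mean log2 CPM was -0.38 with all rats and -0.64 with the shorter class alone. Part of the latter lay in males, since the mean of the interferon-stimulated list was 2.96 in the shorter and 2.46 in the longer class of intact males and 2.76 in GDX males, beside 2.45 in the shorter class of intact females and 2.90 in OVX females.

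The interferon-stimulated response element is the sequence that IRF and STAT complexes bind, and its core was searched on both strands as GAAANNGAAA, with N for any base, in the RefSeq promoters of GRCr8 (250 bases before to 50 after the start of a gene). It was present in 3.92% of 33469 promoters. Of the 21 genes of the interferon-stimulated list matched by symbol, 12 (57.1%) had it in any of their promoters. The share over all promoters is counted per promoter and that of the list per gene. The stretches of Bst2 (chr16:18255061-18255120, - strand) and Ifi27 (chr6:128355121-128355259, + strand), which lie upstream of the start of the gene, are shown as examples of members with the motif. Each holds 2 matches, overlapping in Bst2, from -131 to -116 and from -169 to -75 relative to the start. Capitals mark the matches, and a match describes the letters, not binding.
Bst2: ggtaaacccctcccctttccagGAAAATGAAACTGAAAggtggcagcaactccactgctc
Ifi27: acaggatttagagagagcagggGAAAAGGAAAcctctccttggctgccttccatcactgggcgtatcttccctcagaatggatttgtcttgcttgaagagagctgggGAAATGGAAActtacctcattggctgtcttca

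Genes of antigen presentation had similar median responses in both sexes, with medians of 0.23 after GDX and 0.23 after OVX and a median difference of -0.12 (12 higher and 15 lower of 27, 3 with an unadjusted p under 0.05, all with the lower response in males). The median of the antigen presentation list turned to 0.016 with the shorter class alone, and its sign was kept in 30 of 33 settings. Tapbp, which loads peptides onto class I molecules, differed by -0.34, and the class I genes RT1-S3 and RT1-T24-3 by -0.56 and -1.37. B2m, the light chain of class I and the most abundant member, had responses of 0.25 and 0.21. Reads of related class I genes may be shared between them, since the counting settings for such reads are not given.

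The other immune and blood cell lists had positive median differences with all rats. In the complement list 16 of 20 had a higher response in males. The median was 0.20, as low as 0.10 when a rat was left out and -0.082 with the meninges level held constant. Of the members 4 had an unadjusted p under 0.05, among them C7, part of the membrane attack complex that fibroblasts also make, at 1.16, and C1qc, a chain of C1q made by microglia, at 0.61. C3, the central component, had responses of 0.19 after GDX and 0.31 after OVX. Microglial genes had a median of 0.066 (11 of 18 higher; from -0.060 to 0.10 over 33 settings) and none had an unadjusted p under 0.05, with Ctss at 0.10, Gpr34 at 0.32, P2ry13 at -0.42 and Trem2 at -0.35. Most markers of blood cells were higher after gonadectomy in both sexes, and their summed levels varied most among GDX males. In the leukocyte and the erythroid list 5 of 6 members each rose and were called after GDX, where 7.56% of all genes did. After OVX none was called, and 4 and 3 were higher at an unadjusted p under 0.05, where 4.88% of all genes were. The granulocyte and other blood leukocytes list was summed over all its 16 members in the table, of which 6 were tested. The sums were 3.97, 3.48, 2.19, 2.54 and 2.43 CPM in intact males and 4.58, 4.91, 22.3, 9.58 and 15.7 CPM in GDX males. They lay from 3.18 to 4.90 with a median of 3.64 CPM in intact females and from 4.56 to 9.04 with a median of 5.67 CPM in OVX females. GDX males 4 and 6 were the highest. The list, which includes Gzmm, had median responses of 2.36 and 1.59, with S100a9, its most abundant gene, at 2.45 and 1.66. The erythroid list, led by hemoglobin Hba-a2, summed to 23.2, 17.0, 9.75, 10.8 and 12.5 CPM in intact and 19.0, 23.1, 98.4, 35.5 and 58.4 CPM in GDX males and lay from 5.61 to 32.6 with a median of 19.7 CPM in intact and from 28.1 to 46.1 with a median of 35.7 CPM in OVX females. Its median responses were 1.69 and 0.89, and all 6 tested had a higher response in males (median 0.80), none with an unadjusted p under 0.05. That median was as low as 0.33 when a rat was left out, 0.058 with rat number as a replicate block and 0.062 with the meninges level held constant, and for the leukocyte list the last of these was 0.25. Between 2 and 8 members of the leukocyte list had no count in a given rat, and the part of blood left in the tissue in other results was not tested.

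Genes of synaptic transmission had a lower response in males. In the synaptic vesicle list 29 of 31 members did, 15 of them with an unadjusted p under 0.05 (48.4%, against 5.71% of all genes) and none in the other direction, with a median difference of -0.21. After GDX 19 fell (median -0.22), and after OVX the median was -0.053, with 6 lower and 1 higher at an unadjusted p under 0.05. Rims1, a scaffold of the active zone, lay at 139, 141, 127, 134 and 128 CPM in intact males and 120.2, 113, 113, 108 and 111 CPM in GDX males, from 115 to 131 with a median of 125 CPM in intact females and from 115 to 139.5 with a median of 122 CPM in OVX females. The males did not overlap and the females did (difference -0.23 ± 0.065, adjusted p = 0.161). Nsf, the ATPase that takes fused SNARE complexes apart, had a difference of -0.24, and Snap25, the most abundant member, of -0.14. Summed over the synaptic vesicle list the level was 7850.4, 8045, 7341, 7761 and 7745 CPM in intact males and 7028, 6999, 6444, 5947 and 6715 CPM in GDX males, without overlap, and from 7231 to 7495 with a median of 7309 CPM in intact and from 6618 to 7345 with a median of 6988 CPM in OVX females. GDX male 5, with the highest level of the meninges and fibroblast list, had the lowest level here. CPM are shares of a library, and in the fit that held the meninges level constant the median difference of the synaptic vesicle list was -0.11.

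Both excitatory and inhibitory transmission took part. Of the glutamate receptors and transporters 26 of 29 had a lower response in males, 9 with an unadjusted p under 0.05 (median -0.15), and 13 fell after GDX. Slc17a6, the vesicular glutamate transporter of spinal excitatory neurons, was measured at 97.8, 96.6, 88.7, 93.6 and 80.7 CPM in intact males and 72.7, 72.6, 78.6, 70.0 and 75.9 CPM in GDX males, from 70.6 to 87.5 with a median of 73.6 CPM in intact females and from 68.5 to 95.3 with a median of 78.3 CPM in OVX females. Intact males were above all GDX males, and the female groups overlapped (difference -0.38 ± 0.096, adjusted p = 0.137). Among glial carriers, Slc1a3 had responses of 0.16 after OVX and -0.029 after GDX, and Slc1a2, the most abundant member, differed by -0.010. Of the genes of GABA and glycine transmission 19 of 27 had a lower response in males, 8 with an unadjusted p under 0.05 (median -0.11, -0.065 with the shorter class alone and as small as -0.057 when a rat was left out), with Slc6a5 named above, Slc32a1, which loads both transmitters into vesicles, at -0.43, and the receptor subunits Gabbr2 and Gabbr1 at -0.35 and -0.13. In the fit that held the meninges level constant, the medians were -0.068 for glutamate receptors and transporters and -0.048 for GABA and glycine transmission.

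Ion channels had the same direction. Of 71 potassium channels 53 had a lower response in males (median -0.11). At an unadjusted p under 0.05 13 were lower (18.3%, against 5.71% of all genes) and 1 higher. After GDX 22 of the 71 fell, where 7.83% of all genes did. Kcnh2, a delayed rectifier, Kcnip1, a subunit of A-type channels, Kcnt1, activated by sodium, and Kcna2 of juxtaparanodes had differences of -0.34, -0.70, -0.35 and -0.19. Of 37 sodium and calcium channels 30 had a lower response, 9 with an unadjusted p under 0.05 (median -0.15), with Scn1a at -0.19, Unc80 of the sodium leak channel at -0.25 and the T-type calcium channel Cacna1i at -0.52. With the meninges level held constant the medians were -0.086 for potassium channels and -0.077 for sodium and calcium channels. The perineuronal net, a lattice of matrix around motor neurons and fast interneurons, was unlike the fibroblast matrix: 9 of 11 members had a lower response in males (median -0.074, from -0.18 to -0.039 over 33 settings), with Hapln4 at -0.34, its core proteoglycan Acan at -0.31 and the abundant Bcan at -0.037. The neurofilament and axon growth list had 10 higher and 10 lower, with Ina at -0.36, Sncg at 0.26 and Stmn1 at 0.13. Nefm, its most abundant gene, had responses of -0.26 after GDX and -0.33 after OVX.

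With all rats, most motor neuron genes had negative responses in both sexes. In the motor neuron list 13 of 14 were lower after OVX, 8 with an unadjusted p under 0.05 and none called (median -0.31), and 12 were lower after GDX, 2 called (median -0.15). The median difference was 0.14 (from 0.10 to 0.29 when a rat was left out). In each direction 1 member was past an unadjusted p of 0.05, Anxa4, an annexin, at 0.22 and Esrrg, the orphan receptor of gamma motor neurons, at -0.34. Prph, peripherin and the most abundant member, had group means of 224, 213, 282 and 217 CPM in the same order as above, and Slc5a7, the choline transporter, of 119, 124, 128 and 108 CPM. In the motor neuron list the mean log2 CPM of intact males was 4.60 in the shorter and 4.90 in the longer class. In intact females it was 4.79 and 5.03, so the mean was lower in the shorter class of both sexes. GDX males had a mean of 4.65 in the motor neuron list, slightly above intact males of the shorter class, so the direction in males turned within that class. The intact males of that class, rats 2 and 5, also had the lowest Hoxc8 levels of the intact males. The parts of fragment class and of position along the cord were not tested. The difference of the motor neuron list mean was 0.20 with the shorter class alone and 0.18 with all rats. The dorsal horn list, 10 tested genes of the discarded part, had a median of -0.11, and the dorsal root ganglion list, with 5 tested of 9, of 0.089, none with an unadjusted p under 0.05 in either list. Both turned with the settings, to 0.061 for the dorsal horn and -0.29 for the dorsal root ganglion with the shorter class alone. Of the receptors for descending inputs, 9 serotonin receptors had a median of -0.22 (from -0.32 to -0.11 over 33 settings, the smallest without intact male 2), with 4 higher and 5 lower. Htr2c, the most abundant of them, was at -0.22. The difference of mean log2 CPM of the serotonin receptors was -0.11 with all rats but 0.048 with the shorter class alone. The 7 adrenergic receptors had a median of -0.067 (from -0.12 to 0.0026 over 33 settings). Neurotrophins, GDNF and their receptors had a median of -0.036 (from -0.060 to 0.0998 over 33 settings), with the receptor Ntrk2 at -0.036.

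**Figure D4:**
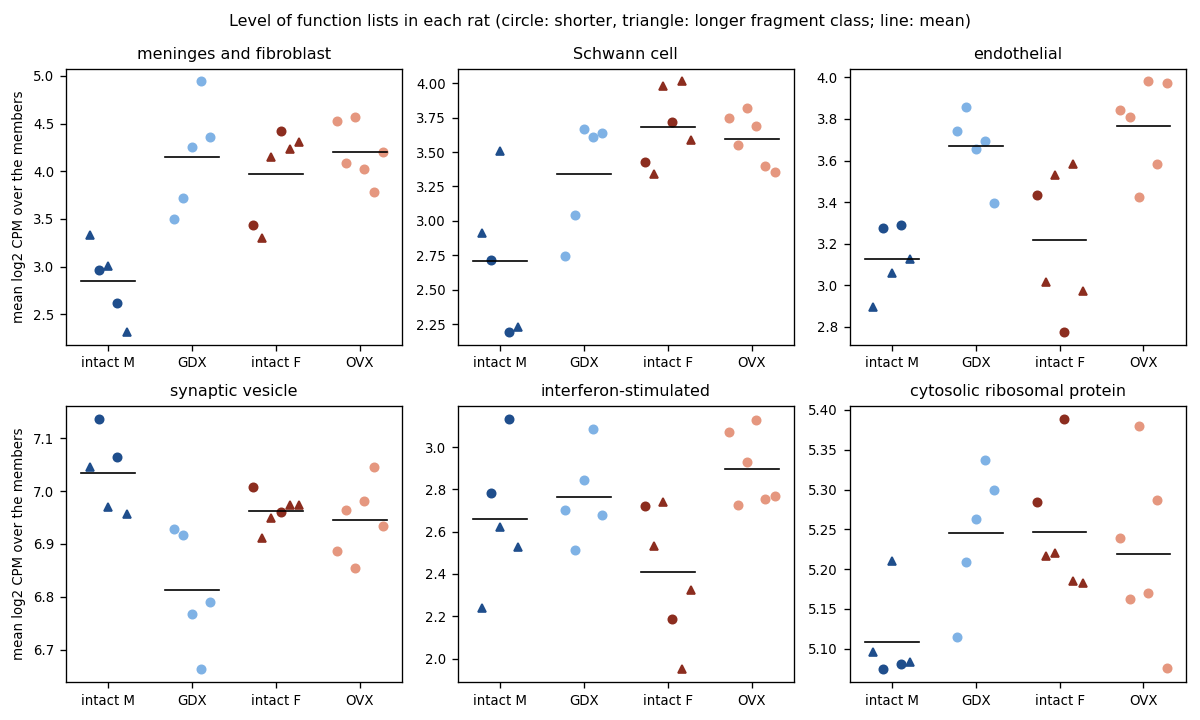
Mean log2 CPM over the members of 6 function lists in each rat, by group, with circles for the shorter and triangles for the longer fragment class and a line at the group mean. The group mean of intact males is the lowest for the meninges and fibroblast list and the highest for the synaptic vesicle list, with overlap of single rats, while the mean of the endothelial list is higher after gonadectomy in both sexes.

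Several genes of the circadian clock had responses of opposite sign in the 2 sexes. The clock is a feedback loop in which Arntl with Clock or Npas2 drives the Per, Cry, Nr1d and Dbp genes through E-boxes, and the Per, Cry and Nr1d proteins repress it in turn. Of 20 tested members 15 had a higher response in males, 7 with an unadjusted p under 0.05, and 2 of the other 5 were lower at that level, with a median difference of 0.17. Dbp, an output factor of the loop, lay at 37.8, 35.3, 42.4, 35.3 and 31.4 CPM in intact males and 45.6, 38.7, 39.1, 45.1 and 48.4 CPM in GDX males, from 52.5 to 76.9 with a median of 58.5 CPM in intact females and from 45.7 to 51.4 with a median of 50.2 CPM in OVX females. The intact females were above all OVX females, and intact and GDX males overlapped. Dbp rose by 0.25 after GDX (adjusted p = 0.0691), had a response of -0.29 after OVX (adjusted p = 0.165), and its difference of 0.54 ± 0.12 was called (adjusted p = 0.0973). Per3, Nr1d2 and Per2, repressors of the loop, had responses of 0.27, 0.12 and 0.036 in males and -0.17, -0.23 and -0.28 in females. The activators Arntl and Npas2 went the other way, with differences of -0.43 and -0.39. Arntl lay at 25.3, 22.6, 25.3, 26.8 and 27.1 CPM in intact males and 25.3, 26.6, 24.1, 20.7 and 18.7 CPM in GDX males, from 13.9 to 21.3 with a median of 18.8 CPM in intact and from 20.6 to 24.4 with a median of 22.3 CPM in OVX females. No intact female reached an intact male. Clock, Cry1 and Cry2 had differences of -0.013, -0.19 and -0.088.

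Several of these values moved with the shorter class alone. Fragment class as a term, shared by both sexes, could change differences little, since both intact groups held similar shares of the longer class. With that term the median difference of the clock list was 0.17, and the differences of Dbp and Per2 were 0.53 and 0.30. In intact females the mean log2 CPM of the circadian clock list was 4.70 in the shorter and 4.87 in the longer class, and in intact males 4.65 and 4.60. With the shorter class alone the difference of the list mean was -0.0074, in place of 0.13 with all rats, while the differences of Dbp, Per3 and Nr1d2 were 0.43, 0.37 and 0.32 and that of Per2 turned to -0.097. The hour at which each rat's tissue was taken was not used here, and its part was not tested. The E-box was searched on both strands as CACGTG in the same RefSeq promoters of GRCr8. It was present in 6.42% of all promoters. Counted per gene, it was in 5 of 17 matched genes of the circadian clock list (29.4%), against 2 of 21 of the interferon-stimulated list (9.52%). Upstream stretches are shown for Tef (chr7:115206607-115206656, + strand), an output factor related to Dbp, and for Bhlhe41 (chr4:180569376-180569425, - strand), a repressor that binds the E-box itself, as members with the motif from -198 to -193 and from -48 to -43 relative to the start. The differences of Tef and Bhlhe41 were 0.13 and 0.23, and capitals mark the match.
Tef: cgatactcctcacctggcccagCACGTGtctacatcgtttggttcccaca
Bhlhe41: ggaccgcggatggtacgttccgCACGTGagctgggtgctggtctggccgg

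**Figure D5:**
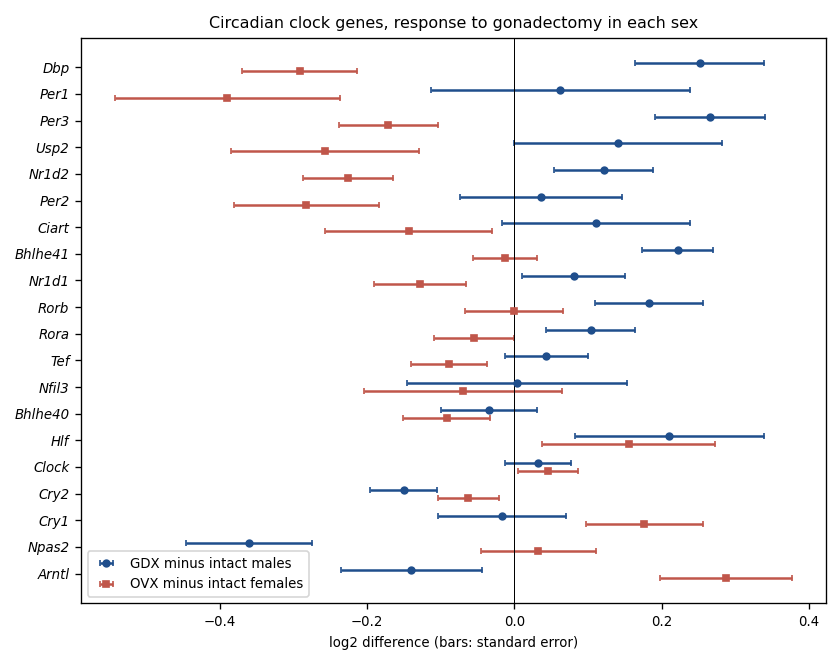
Log2 difference of GDX minus intact males (circles) and of OVX minus intact females (squares) for the 20 tested circadian clock genes, with bars for the standard error. Dbp, at the top, lies to the right of 0 in males and to the left in females, and Arntl, at the bottom, the other way.

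Most genes responsive to glucocorticoids had negative responses to OVX with all rats, a direction that the shorter class did not keep. Of the 14 in the glucocorticoid-responsive list 13 were lower after OVX, 6 with an unadjusted p under 0.05 (5.42% of all genes) and none called, with a median of -0.22, and the median after GDX was 0.062. The median difference was 0.38, with 13 members having the higher response in males, 2 of them with an unadjusted p under 0.05 and 1 called. Sgk1, a kinase induced by corticosteroids, had group means of 29.5, 27.9, 77.8 and 43.8 CPM and responses of -0.081 after GDX and -0.83 after OVX (adjusted p = 0.222), and Pdk4, which restrains the use of pyruvate, a difference of 0.90. The most abundant member, Tsc22d3, known as GILZ, differed by 0.058. This list too differed between the fragment classes: in intact females its mean log2 CPM was 3.82 in the shorter and 4.48 in the longer class, against 4.01 in OVX females. With the shorter class alone the median difference of the glucocorticoid-responsive list was -0.14 and the difference of Pdk4 -0.014. With fragment class as a term, which is shared by both sexes and could change the differences little, these values were 0.36 and 0.80. Immediate early genes had a median of 0.17 (15 of 21 higher), which was -0.074 with the shorter class alone. Klf4, a zinc finger factor of endothelium and fibroblasts, had the smallest p among them (difference 0.92, adjusted p = 0.181).

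Receptors of ovarian steroids and enzymes of steroid synthesis were present in the cord. Esr1 and Esr2, the estrogen receptors, were present at group means between 1.42 and 4.09 CPM, with differences of 0.35 and -0.023, and Pgr, the progesterone receptor, had a difference of -0.11. Of 19 tested genes of steroid receptors and synthesis (25 in the table) 12 had a higher response in males with a median of 0.028. Akr1c14, a hydroxysteroid dehydrogenase that makes neurosteroids from progestins and androgens, had an unadjusted p under 0.05 (difference 0.94, adjusted p = 0.410), and Srd5a1, which makes dihydrotestosterone, differed by -0.12. Of the genes of cholesterol synthesis and uptake 19 of 25 had a lower response in males (median -0.073, -0.013 with the shorter class alone). After OVX 22 of 25 were higher, 8 with an unadjusted p under 0.05, and Stard4, a carrier of sterols, had responses of 0.12 after OVX and -0.12 after GDX. Of pituitary and peptide hormone receptors 7 of 9 had a lower response in males, none with an unadjusted p under 0.05 (median -0.040, from -0.15 to -0.0028 over 33 settings).

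Among the genes of basic cell functions, cytosolic ribosomal proteins stood out by number. Of 85 tested 78 had a higher response in males, 25 with an unadjusted p under 0.05 (29.4%, against 5.92%) and none lower, at a small median difference of 0.15. After GDX 18 rose (median 0.13), and after OVX the median was -0.021. Rpl10, Rps21 and Rpl31 had differences of 0.29, 0.34 and 0.31, and the abundant Rpl3 of 0.12. The list mean in intact females was 5.34 log2 CPM in the shorter and 5.20 in the longer class, and with the shorter class alone the difference of the cytosolic ribosomal protein list was 0.29, in place of 0.16. Its median was 0.063 in the fit that held the meninges level constant. All 13 genes of the mitochondrial genome had a higher response in males (median 0.14, from 0.035 to 0.33 over 33 settings), none with an unadjusted p under 0.05, but their nuclear partners were not: in the nuclear oxidative phosphorylation list 37 had a higher and 51 a lower response (median -0.014, from -0.049 to 0.070 over 33 settings), with Uqcrc1 and Atp5f1b, subunits of complex III and of ATP synthase, at -0.13 and -0.094.

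The remaining lists lay near the middle of all genes, and the medians of most of them changed sign in at least 1 of the 33 settings. Counts of members with a higher or lower response in males follow each median. The median difference was -0.027 (34 higher, 42 lower) for mitochondrial ribosomal proteins, 0.034 (42 higher, 22 lower) for translation factors and 0.037 (32 higher, 14 lower) for the proteasome. For splicing factors it was 0.039 (61 higher, 38 lower), with Snrpb2 and Sf3b3 at 0.34 and 0.24, for chromatin modifiers -0.0099 (35 higher, 45 lower) and for heat shock proteins and chaperones 0.012 (21 higher, 13 lower). Eef1a2, the elongation factor of neurons and muscle, was at -0.22 and its widely expressed paralog Eef1a1 at 0.15. Motile cilia of the central canal had 0.026 (11 higher, 10 lower). Oligodendrocyte precursors had a median of 0.033 (9 higher, 5 lower), where Gpr17, a receptor of cells about to form myelin, had responses of 0.32 after OVX and -0.016 after GDX. Astrocyte genes had 0.062 (12 higher, 7 lower), but their cytoskeletal and calcium-binding members Vim, Gfap and S100b had differences of 1.07, 0.22 and 0.20, and Vim is made by fibroblasts and endothelium too. Solute carriers of organic anions, the class of Slc26a7 and Slco3a1, had -0.040 (10 higher, 14 lower), with 5 members past an unadjusted p of 0.05 upward and 4 downward. The sex-linked list served as a check of the labels and had no member called.

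Hox genes, which mark the level along the cord, had a median difference of 0.018 (11 higher, 8 lower), but their most abundant member varied between rats. Hoxc8, a gene of the lower cervical and thoracic cord, lay at 19.7, 5.33, 63.1, 3.96 and 65.1 CPM in intact males and 20.5, 41.6, 55.9, 49.8 and 48.0 CPM in GDX males, from 50.0 to 66.9 with a median of 56.7 CPM in intact females and from 34.4 to 52.7 with a median of 48.0 CPM in OVX females. Intact males 1, 2 and 5 and GDX male 1 were low, and intact males 3 and 6 were in the range of the other groups. With all rats the difference of Hoxc8 was 0.78 ± 0.57 (adjusted p = 0.634), and with the shorter class alone, which keeps intact males 2 and 5, it was 3.47 (adjusted p = 0.000852). The difference of mean log2 CPM over the Hox list was 0.20 with all rats and 0.40 with the shorter class alone, where 6 members were higher and 2 lower at an unadjusted p under 0.05. Whether the segments sampled differed between rats, and what part this had in other results, was not tested.

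Of the 38 genes that moved in opposite directions with an unadjusted p under 0.05 in both sexes, 23 were higher after GDX and lower after OVX and 15 the reverse. Of the 10 with the smallest p for the difference, 5 were called and have been described (Plekhb1, Rgma, Slco3a1, Hopx and Dbp). The others with a known function included Per3 of the clock and Slc25a13, the mitochondrial carrier of aspartate and glutamate. Slc25a13 had responses of 0.25 after GDX and -0.16 after OVX (adjusted p = 0.129 for the difference).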

How the data were processed

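The table of raw read counts per gene came from the authors, who by their processing notes aligned reads to Rnor_6.0 and counted them over genes with Subread before the counts were deposited. The submitters' notes list TopHat2 2.0.13 and a Truseq kit, while the paper's methods name Hisat2 and the SMARTer Pico kit. Strand, multiply mapped reads and overlapping genes are handled by settings not given in the sources used. All 22 columns were used, with totals from 12371756 to 17571887 reads and 32883 genes, of which 24689 had a count. Genes with low counts were dropped by filterByExpr of edgeR. The 4 group means were fitted with edgeR 4.0.16 (quasi-likelihood, TMM) in R 4.3.3, the contrast was tested per gene, and p was adjusted by Benjamini-Hochberg over all genes tested. Log2 CPM for list levels used a prior count of 2. limma 3.58.1 and DESeq2 1.42.0 served as alternatives.

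Named genes are those called, the first 12 per direction by p, the 3 smallest p and the most abundant member of each list, receptors and markers. Lists were written from known gene functions and name patterns, and lists and members were chosen with earlier results of these data known. They are described by counts and medians beside those of all genes, without a test of a list. Promoters were taken from RefSeq on GRCr8 and matched by symbol. On simulated counts with known differences the code called 31 of 67, 54 of 67 and 61 of 66 genes with true log2 differences of 0.5, 1 and 2, and 16 of all genes without one.

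The alternatives were other tests, scaling, filters, terms for fragment class, RNA integrity and meninges level, the shorter class alone, rat number as a block, and leaving out each rat. The groups hold 5 or 6 rats, all gonadectomized rats are of the shorter class, and single rats change the number of called genes. The called genes kept their direction, but they were chosen by the same contrast, and the medians of several lists changed sign. Bulk levels do not separate cell number from RNA per cell, and protein and hormones were not analysed here. Results of some single genes are not reported.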

Additional observations from a re-analysis of the deposited data

Results flagged for a closer look

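In 7 of 304 groups of rats searched for a single distant value, 1 rat lay apart, where chance alone marks about 1 in 20 groups. Olfml2a was low in OVX female 5 at 14.8 CPM (next 18.5), Adar high in GDX male 1 at 115 CPM (next 103), Dbp high in intact female 6 at 76.9 CPM (next 59.4), Hopx low in intact female 1 at 53.0 CPM (next 61.5) and Slco3a1 low in OVX female 3 at 41.7 CPM (next 45.5). Summed over lists, antigen presentation was low in intact female 5 at 326 CPM (next 392.01) and central myelin low in OVX female 4 at 25561 CPM (next 27853). GDX male 1, whose Adar level lay nearest to intact males, is also the rat without which the most genes were called. No rat was removed.

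The log2 difference between the GDX and OVX responses passed the adjusted level of 0.1 in 18 genes. It was 3.15 for Slc26a7, 2.35 for Gzmm, 1.90 for Slc6a20, 1.66 for Cubn, 1.36 for Sult1a1, 0.90 for Ahnak, 0.81 for Olfml2a, 0.76 for Lama1, 0.55 for Rgma, 0.54 for Dbp, 0.51 for Cd44, 0.39 for Hopx, 0.37 for Plekhb1 and 0.36 for Pkp4. It was -0.53 for Scrt1, -0.38 for Lamp5, -0.31 for Slco3a1 and -0.28 for Adar.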

How the results depend on the processing

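The number of genes called in the difference, 18 with the quasi-likelihood test of edgeR, was 184 with its likelihood ratio test, 243 with DESeq2 and 3 with limma-voom. It was 33 without a filter on low counts, 6 with a filter of at least 1 CPM in 5 libraries and 18 with RLE size factors. With fragment class as a term it was 6, with the shorter fragment class only 5, and with RIN (RNA integrity number) as a term 5. None of the 18 was among the 5 of the shorter class, where 17 of them had an unadjusted p under 0.05, while all 5 called with RIN were. With the level of meninges genes as a term it was 1, again none of the 18. At an unadjusted p under 0.05 it was 1810. Leaving out a rat moved it from 1 (GDX male 5) to 275 (GDX male 1). Without intact males 1, 2, 3, 5 and 6 in turn it was 12, 7, 44, 5 and 10, and without GDX males 1, 2, 4, 5 and 6 it was 275, 111, 5, 1 and 2. Without intact females 1 to 6 it was 108, 34, 2, 3, 3 and 4, and without OVX females 1 to 6 it was 25, 2, 15, 3, 6 and 3. The cause was not tested.

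The 2395 genes called after GDX in males became 868 with the shorter fragment class only, 1 with the meninges level as a term and 3770 at an unadjusted p under 0.05, and leaving out a rat gave 1514 (GDX male 5) to 2775 (GDX male 1). The 9 called after OVX became 118 with the likelihood ratio test, 156 with DESeq2, 19 with limma-voom, 19 with RLE size factors, 16 without a filter, 20 with at least 1 CPM in 5 libraries, 2 with fragment class as a term, 55 with RIN as a term and 1603 at an unadjusted p under 0.05. Leaving out a rat gave 1 (intact female 2, OVX female 1 or OVX female 6) to 122 (intact female 1).

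With rat number as a replicate block, edgeR called 0 genes in the difference (smallest adjusted p = 0.207), with 1582 genes at an unadjusted p under 0.05, where DESeq2 without a block called 243 and limma-voom 3. In the same replicate block fit 1396 genes were called after GDX and 1 after OVX. Rat numbers repeat between groups, and the sources used do not say that equal numbers belong together.

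All 18 genes kept their direction in every setting in which they were tested, and Pkp4 lay between 0.33 and 0.43 log2. Sizes moved more for others, from 0.60 to 2.04 for Slc6a20 and from 0.29 to 0.99 for Ahnak, each lowest with the meninges level as a term. These genes were chosen by the same contrast, which favours a kept direction. Medians of lists turned more often, and the sign of the endothelial list was kept in 19 of 33 settings and that of motile cilia in 20. The median of the interferon-stimulated list lay between -0.51 and -0.18 and that of the synaptic vesicle list between -0.25 and -0.11. That of the meninges and fibroblast list changed sign only with its own level as a term, at -0.051, and that of the glucocorticoid-responsive list was -0.14 with the shorter class only.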
